A study of Homo sapiens with 4 samples.

Results

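NSUN2-bound regions in the 3' untranslated regions (3' UTRs) of protein-coding genes were taken from RIP-seq of PANC-1 cells, an established human line of pancreatic ductal adenocarcinoma. The members were the called peaks that the authors' annotation ends in the 3' UTR of a protein-coding gene, which were 7416 of 48104 peaks with lactate and 12384 of 95785 peaks with ddH2O. The merged peaks of the comparison between conditions that overlapped one of them by at least 1 base were 14450 of 116484. Wild-type cells were given sodium lactate at 30 mM or ddH2O as the vehicle, in both cases for 24 h, and RNA was pulled down with an antibody against NSUN2 (IP) or collected before the pull-down (input). Each of the 4 groups, namely lactate IP, lactate input, ddH2O IP and ddH2O input, was 1 library, so no value below has a replicate error and no test between conditions was possible. A difference between lactate and ddH2O therefore cannot be told apart from a difference between 2 cultures or 2 pull-downs of the same kind.

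The 3' UTR is the stretch of an mRNA between the stop codon and the poly(A) tail. It holds AU-rich elements, microRNA sites and the signals for cleavage and polyadenylation, and proteins that bind it set how long an mRNA lasts and how well it is translated. NSUN2 is an RNA methyltransferase that places 5-methylcytosine (m5C) on tRNAs and on many mRNAs, 3' UTRs included. RIP-seq reads show RNA that came down with the protein and do not show methylation, and a gene that is transcribed more also gives more reads.

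A 3' UTR peak was called in 4949 genes with lactate and in 6726 genes with ddH2O. Both lists held 4190 of these genes, which were 84.7% of the lactate genes and 62.3% of the ddH2O genes. The median fold of IP over input, which the authors' peak caller gives for each peak, was 3.64 with lactate and 3.51 with ddH2O, against 3.64 and 3.52 at exon peaks and 3.24 and 3.03 at intron peaks. Of the lactate peaks 65.0%, and of the ddH2O peaks 70.6%, had a q-value below 0.05. Most genes had 1 peak, as 3484 genes did with lactate and 3979 with ddH2O, while 113 and 373 genes, respectively, had at least 5. Median peak lengths were 300 and 332 bases.

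For each merged peak a normalized read density per IP library was deposited, in reads per kb. It covers a window of 2000 bases around the summit, so a window can reach past the end of the 3' UTR. The 3' UTR windows were denser than exon and intron windows in both libraries. Their median density was 9.38 with lactate and 12.8 with ddH2O, against 3.10 and 5.01 at exons, 2.62 and 3.38 at introns, and 2.84 and 3.74 over all merged peaks. The windows held 763899 reads with lactate and 1438863 with ddH2O, with some reads counted more than once because 42.2% of the windows overlapped a neighbouring one. At least 20 reads over both IP libraries were found in 9562 windows, at least 100 in 4664, and 4888 windows fell below 20. When only the densest 3' UTR window of each gene was counted, reads were spread over many genes. The 100 genes with the most reads in that window held 18.5% of the reads of such windows with lactate and 19.6% with ddH2O.

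By the mean density of both IP libraries, the 8 densest 3' UTR windows were those of HSP90AA1, RACK1, EEF2, ANXA2, LUC7L3, IGFBP4, RPS2 and SREK1. The windows of LUC7L3 and SREK1 lay 11475 and 13121 bases upstream of the annotated end of their genes. HSP90AA1, an inducible form of the chaperone HSP90, had a density of 1870 with lactate and 1927 with ddH2O. RACK1, a protein of the small ribosomal subunit, had 2203 and 1402. EEF2, the elongation factor that moves the ribosome along the mRNA, had 1973 and 1398. ANXA2, a calcium-dependent membrane-binding protein, had 1745 and 1344. Several of these genes have processed pseudogenes that could take or give reads. LUC7L3, a splicing factor of the U1 snRNP, had a density of 2037 with lactate and 962 with ddH2O, a log2 ratio of 1.08 that came to 0.39 when reads were scaled by library sums. IGFBP4, a secreted binding protein of insulin-like growth factors, had 1645 and 1276, RPS2 of the small ribosomal subunit had 1645 and 1180, and SREK1, a regulator of splicing, had 1582 and 1172. The direction of these densest windows depended on the scaling. By normalized density, RACK1, EEF2, ANXA2, IGFBP4, RPS2 and SREK1 had log2 ratios from 0.37 to 0.65, and by library sums from -0.34 to -0.10. HSP90AA1 went from -0.04 to -0.81. Enrichment over input was uneven among them. IGFBP4 was 4.37-fold over input with lactate and 6.96-fold with ddH2O, and SREK1 was 9.51-fold and 10.5-fold, while RACK1 and RPS2 had a 3' UTR peak only in the ddH2O list, at 1.78-fold and 1.56-fold.

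**Figure D1:**
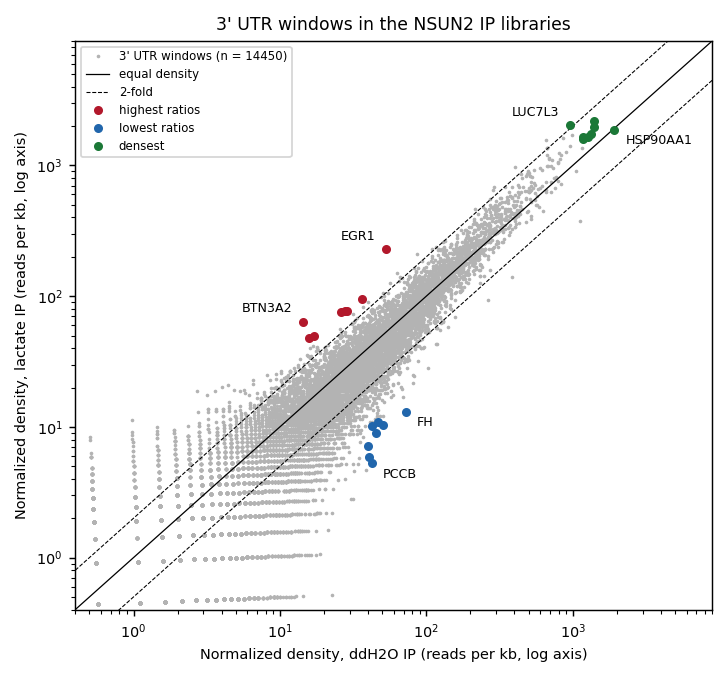
Normalized density of each of the 14450 3' UTR windows in the ddH2O IP (x axis) and the lactate IP (y axis), in reads per kb on log axes, with lines of equal density and of a 2-fold difference. EGR1, BTN3A2 and, among the densest windows, LUC7L3 lie above the upper 2-fold line, FH and PCCB lie below the lower one, and HSP90AA1 lies at equal density.

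By fold over input the order was another one. Ranked by the smaller of the fold values in the 2 lists, the highest 3' UTR peaks were those of ASH1L, a histone methyltransferase (26.5-fold with lactate and 34.2-fold with ddH2O), and FBXW5, a substrate receptor of a ubiquitin ligase (26.4-fold and 31.1-fold). USP7, a deubiquitinase that acts on MDM2 and p53, followed with 34.6-fold and 23.7-fold, and ANKRD11, a chromatin regulator, with 28.4-fold and 22.9-fold. The log2 ratio of density between the conditions was 0.52 or less at each of the 4. The FBXW5 peak lay 307 bases from the annotated end of its gene, while those of ASH1L, USP7 and ANKRD11 lay 143943, 23381 and 16238 bases from it, inside the gene.

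The annotated 3' UTR was not always near the end of the gene. With gene spans from RefSeq on GRCh38.p14, which matched 98.3% of the peaks of either list, the median distance from a peak to the annotated end of its gene was 1790 bases in the lactate list and 2496 bases in the ddH2O list. Peaks within 500 bases of the end made up 33.2% and 28.3%, and peaks more than 5000 bases away 30.99% and 38.1%, respectively. An annotation calls 3' UTR whatever follows the stop codon of any listed transcript, so exons inside a gene can carry the label. Of the windows, 5269 lay at least 5000 bases from the end, in 2365 genes, and 1444 of these genes had no window within 2000 bases. Such distant windows were sparse, with a median density of 3.62 with lactate and 5.63 with ddH2O, against 18.5 and 23.3 within 500 bases.

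**Figure D2:**
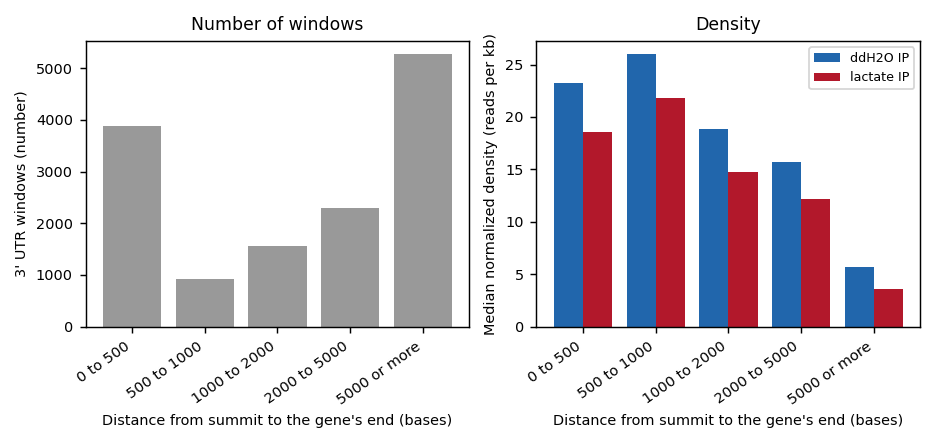
Left, the number of 3' UTR windows by the distance from the summit to the annotated end of the gene. Right, the median normalized density of the same windows in the ddH2O IP and the lactate IP, in reads per kb. The most distant bin has the most windows, 5269, and the lowest density, 5.63 with ddH2O and 3.62 with lactate.

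The genes with the most 3' UTR windows showed this layout. TTC3, a ubiquitin ligase with tetratricopeptide repeats, had 31 windows, of which 30 lay at least 5000 bases from the end and 1 within 2000 bases. Its densities spanned 0.46 to 302 in the lactate IP, and 0.54 to 251 in the ddH2O library. AKAP9, a scaffold protein of the centrosome and Golgi, had 23 windows, REV3L, the catalytic subunit of DNA polymerase zeta, had 18, and KIF15, a kinesin of the mitotic spindle, had 17, all at least 5000 bases from the end of the gene. By normalized density and with at least 20 reads, 7 of 9 windows of KIF15 were more than 2-fold lower with lactate, with log2 ratios from -2.54 to -0.64, and 2 of the 7 held the same 4 lactate and 28 ddH2O reads. In AKAP9 3 of 13 such windows were lower (-3.43 to 0.15), in REV3L 3 of 9 (-1.43 to 0.23) and in TTC3 3 of 25 (-1.87 to 1.00), where 1 window was higher. By library sums the lower windows were 6 in KIF15, 2 in AKAP9, 0 in REV3L and 1 in TTC3, and none was higher. By normalized density, the share of lower windows was 15.2% over all 3' UTR windows and 21.7% over those at least 5000 bases from the end.

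Between the conditions, a window was called higher or lower with lactate at more than 2-fold and at least 20 reads, which is a rule of size and not a test. By the authors' normalized density, 209 of 9562 3' UTR windows were higher (2.19%) and 1452 were lower (15.2%). Over all merged peaks the shares were 7.65% higher and 18.6% lower, both above those of the 3' UTR windows. At exon windows they were 2.23% and 23.6%, and at intron windows 13.0% and 17.3%. The share of higher windows was thus near that of exon windows. The split depended on the scaling. The ddH2O IP had 3536821 reads in windows outside those of the abundant RNAs MT-RNR2 and MALAT1, and the lactate IP 1945000. With these sums taken as equal, 620 windows were higher and 655 lower (6.48% and 6.85%). The shares were 17.0% and 8.77% over all merged peaks, and 7.01% and 12.2% at exon windows. Higher windows thus went from 12.6% to 48.6% of the 3' UTR calls. The median log2 ratio of the 3' UTR windows was -0.22 by normalized density and -0.02 by library sums, and over all merged peaks the 2 scalings differed by 0.32. MAnorm had shifted the log2 ratio upwards by 0.37 at a 3' UTR window of median density and by 1.25 at the threshold of the densest 1 percent, so dense windows were raised most.

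Calls that both scalings shared were 194 higher and 652 lower windows (2.03% and 6.82%, against 7.59% and 8.72% over all merged peaks). With at least 100 reads they were 29 higher windows in 25 genes and 122 lower windows in 105 genes (0.62% and 2.62%, against 1.52% and 3.82%). By normalized density, 21.7% of the windows at least 5000 bases from the end of the gene were lower, against 12.1% within 500 bases, and 2.002% and 1.99%, respectively, were higher.

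Among the 3' UTR windows higher with lactate by both scalings and with at least 100 reads, that of BTN3A2, a butyrophilin of the MHC region, had the largest ratio. It lay at chr6:26375725-26376228 and held 102 lactate reads and 35 ddH2O reads, which gave densities of 64.0 and 14.5. The log2 ratio was 2.14, with an exact binomial 95% interval of 1.60 to 2.77 that covers counting error only. The other 3' UTR window of BTN3A2 pointed the other way, with 7 and 21 reads and a log2 ratio of -1.20, and the gene has close copies (BTN3A1 and BTN3A3) between which reads could be split.

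EGR1, a zinc finger transcription factor of the early response to growth signals, followed with 329 lactate reads and 147 ddH2O reads at chr5:138468285-138468710. Its densities were 229 and 53.4, and its log2 ratio was 2.098 (1.82 to 2.39), or 2.02 by library sums. A second window of the same 3' UTR, which overlaps the first, held 324 and 148 reads. Enrichment over input went the opposite way at both EGR1 peaks, with 1.93-fold against 6.95-fold at the first and 2.64-fold against 5.53-fold at the second, for lactate and ddH2O, respectively. More EGR1 RNA was thus counted in the lactate IP, while its peaks stood less far above the input of the same condition.

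KLF10, a Krüppel-like factor induced by TGF-beta, had densities of 48.1 with lactate and 15.8 with ddH2O (77 and 38 reads), and its 3' UTR peak was called only with lactate, at a q-value of 1. CD82, a tetraspanin of the plasma membrane, had 49.5 and 17.0 (79 and 41 reads), with a fold over input of 3.69 with lactate and 3.001 with ddH2O. FBXO22, an F-box subunit of a ubiquitin ligase, had 75.03 and 26.1 in this window, where a peak was called only with lactate, at 10.4-fold over input. Its neighbouring window had a peak in both lists, at 8.58-fold with lactate and 8.26-fold with ddH2O, with a log2 ratio of density of 0.92, and the remaining one had 14 and 26 reads and -0.49. SLC29A4, a transporter of monoamines, had 77.3 and 28.0, with 6.01-fold and 2.65-fold over input, and a log2 ratio of 0.30 in its other window. TNFAIP8L1 of the TNFAIP8 family had 76.7 and 28.7, with a fold over input of 22.8 against 2.49. The other TNFAIP8L1 window, 165 bases from the end of the gene, pointed the other way, with a log2 ratio of -0.34 (22 and 39 reads) and 4.37-fold against 9.84-fold. CIB2, a calcium-binding and integrin-binding protein, had 96.0 and 36.5. Its merged peak was found in both lists, but only its ddH2O peak was annotated as 3' UTR, at 6.10-fold over input. By library sums, which also entered the choice of these 8 genes, the log2 ratios ran from 1.47 for CIB2 to 2.38 for BTN3A2.

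Among the 3' UTR windows lower with lactate by both scalings and with at least 100 reads, that of PCCB had the lowest ratio. Windows with fewer reads went lower, such as 1 of VTI1A with 4 and 70 reads and a log2 ratio of -3.49. PCCB is a subunit of the mitochondrial propionyl-CoA carboxylase. Its window had 8 lactate reads and 99 ddH2O reads at chr3:136336238-136336493, with densities of 5.27 and 42.7 and a log2 ratio of -3.02 (-4.43 to -2.14). This window lay 6196 bases past the end of PCCB in RefSeq. A second PCCB window, 183 bases from the annotated end of the gene, held 16 and 97 reads, with a log2 ratio of -2.00, and the last, also past the end of the gene, had 33 and 58 reads and -0.24. FH, the fumarate hydratase of the citric acid cycle, had 20 and 181 reads at chr1:241497792-241498045, densities of 13.1 and 73.1 and a log2 ratio of -2.48 (-3.29 to -1.88). The FH peak was 1.504-fold over input in the ddH2O list, and none was called with lactate. ACAD9, a factor for the assembly of respiratory complex I, had 16 and 122 reads and densities of 10.3 and 50.7, and its ddH2O peak was 5.32-fold over input.

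The other lowest windows under the same limits were those of VTI1A, a SNARE protein of endosome traffic, with densities of 5.87 and 40.5, ADSL, an enzyme of purine synthesis, with 7.09 and 39.8, and SMIM27, a small membrane protein, with 9.00 and 45.4. These windows lay at 37322, 23208 and 13969 bases from the annotated end of the gene, respectively. GOLGB1, the Golgi matrix protein giantin, had 10.9 and 46.6 in the window 237 bases from its end, and the ratios of its 7 windows with at least 20 reads ran from -2.10 to -0.12. TMEM14B, a small membrane protein, had 10.2 and 42.8, with a fold over input of 2.26 with lactate and 10.4 with ddH2O. Its window lay 69299 bases past the end of the gene in RefSeq. By library sums the log2 ratios of the 8 ran from -2.61 for PCCB to -1.74 for TMEM14B.

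**Figure D3:**
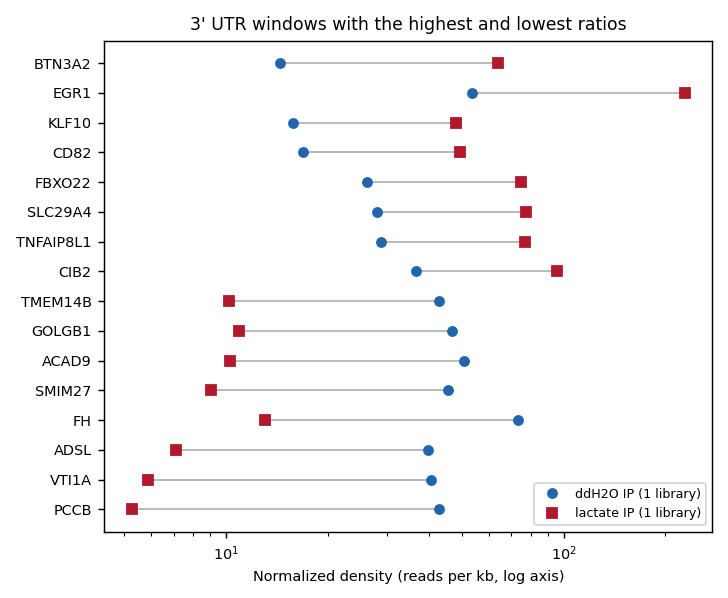
Normalized density in the ddH2O IP (circles) and the lactate IP (squares), each 1 library, for the 3' UTR windows with the 8 highest and 8 lowest ratios among those with at least 100 reads and the same call under both scalings, on a log axis in reads per kb. EGR1 has the highest density with lactate, 229, and PCCB the lowest, 5.27.

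The density ratio compares the IP libraries directly, whereas the fold of a peak is relative to the input of its own condition. Both values existed for 4732 windows with at least 20 reads and a 3' UTR peak in both lists. The fold over input was higher with lactate in 35.6% of them. It was higher with lactate in 80 of the 107 windows that were higher by density (74.8%), and in 44 of the 298 that were lower by density (14.8%). These readouts share the IP reads and are not independent. Both EGR1 windows were among the 107 that were higher by density and not among the 80.

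**Figure D4:**
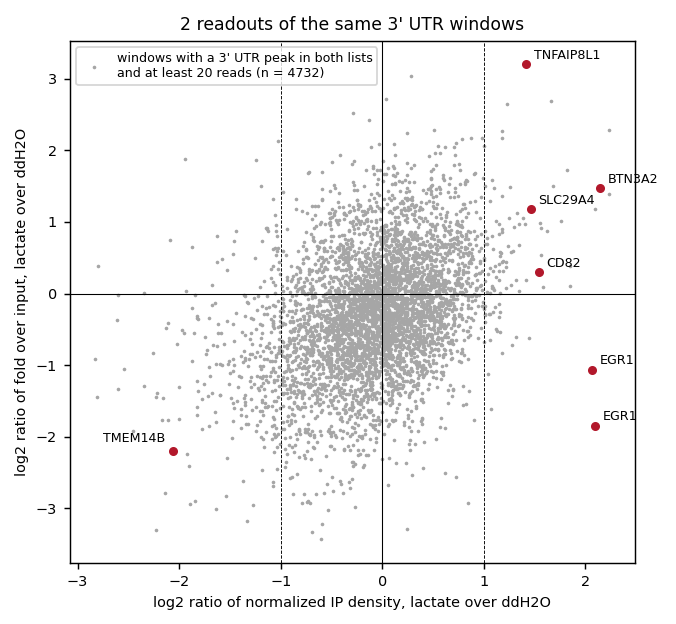
Log2 ratio of normalized IP density (x axis) and log2 ratio of fold over input (y axis), lactate over ddH2O, for 4732 3' UTR windows with a peak in both lists and at least 20 reads. Dashed lines mark a 2-fold difference in density. TNFAIP8L1, BTN3A2, SLC29A4 and CD82 lie above 0 on both axes, TMEM14B below 0 on both, and both EGR1 windows above 0 on the x axis and below 0 on the y axis.

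The genes the study follows from this experiment had 3' UTR windows of different kinds. CDCP1, a transmembrane glycoprotein and substrate of SRC kinases, had 4 windows whose densities were 1.36-fold to 1.67-fold higher with lactate. Their log2 ratios ran from 0.44 to 0.74, and by library sums from 0.40 to 0.86. The lowest, 0.44, had a counting interval of -0.04 to 0.92. The summits lay 320, 1354, 2036 and 3003 bases from the end of the gene, so neighbouring windows overlapped and could share reads. Fold over input was lower with lactate at the window nearest the end of the gene (2.289 against 5.54) and at the most distant (3.04 against 6.42), higher at the next to the end (3.96 against 2.78), and 4.51 against 4.52 at the remaining one. STC1, a secreted glycoprotein hormone, had a single 3' UTR window with densities of 25.2 and 9.38, and its peak was called only with lactate, at 2.11-fold over input with a q-value of 0.13. FOSL1, a subunit of the AP-1 transcription factor, had densities of 461 and 268, a 1.72-fold difference. Its log2 ratio of 0.78 was 0.42 by library sums. The fold over input of FOSL1 was 3.01 with lactate and 3.83 with ddH2O.

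The densest 3' UTR window of each gene was then followed in lists of genes, beside a background of 5839 genes with at least 20 reads, of which 1.95% were higher and 11.5% lower by normalized density (5.94% and 4.97% by library sums). The first list held transcripts known for AU-rich elements, which mark mRNAs of growth factors, cytokines and early-response genes for rapid decay. Of its 50 genes, 25 had a 3' UTR window and 24 had at least 20 reads. Of the 24, 4 were higher with lactate (EGR1, STC1, TNFAIP3 and IER3) and 2 were lower (HBEGF and IL11). The median log2 ratio of the list was 0.12 by either scaling, against -0.16 and -0.01 for all genes. EGR1 and STC1 have been described. The study picked STC1 and FOSL1, also on this list, with the help of this same RIP-seq, so these members are not independent of the data. TNFAIP3, the ubiquitin-editing inhibitor of NF-kappaB, had densities of 23.5 with lactate and 10.6 with ddH2O (39 and 24 reads), with 8.43-fold and 4.72-fold over input. IER3, an early-response gene of apoptosis control, had 462 and 215 and a log2 ratio of 1.10, which was 0.77 by library sums. HBEGF and IL11, a ligand of the EGF receptor and a cytokine of the IL-6 family, had 7 and 21 reads and 6 and 19 reads, and neither was past 2-fold by library sums. The densest member was KLF6, a Krüppel-like factor, with 483 and 289.

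**Figure D5:**
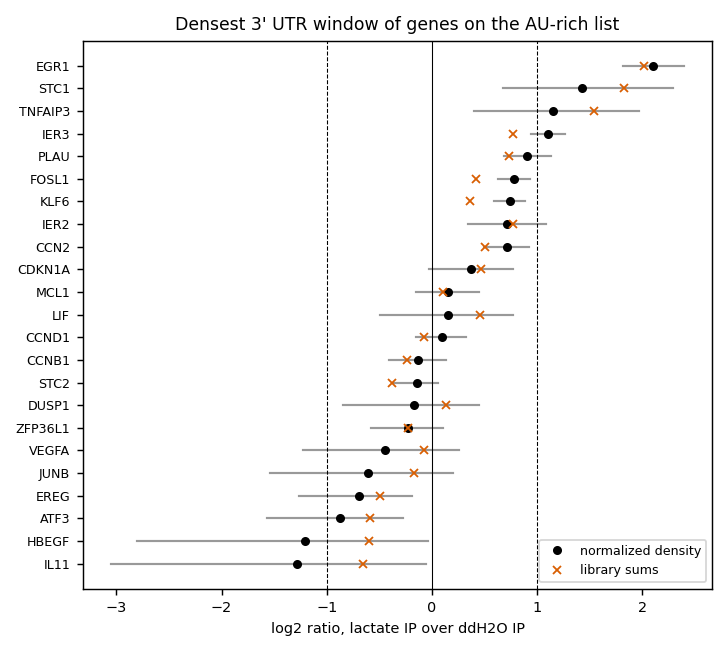
Log2 ratio of density, lactate IP over ddH2O IP, at the densest 3' UTR window of 23 genes from the list of transcripts with AU-rich elements that have at least 20 reads. Circles are ratios of normalized density with exact binomial 95% intervals on the reads (counting error only), crosses are ratios scaled by library sums, and dashed lines mark 2-fold. EGR1, STC1, TNFAIP3 and IER3 are past 2-fold by normalized density, and the first 3 of them by both scalings.

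The list of cleavage and polyadenylation factors, which cut the pre-mRNA at the poly(A) signal and add the tail, was taken next. Of its 11 genes with at least 20 reads, none was higher and 4 were lower by normalized density, and the median log2 ratio was -0.74 (-0.46 by library sums). CLP1, an RNA kinase of the cleavage complex, had 1 read with lactate and 25 with ddH2O, a log2 ratio of -3.59 (-9.90 to -1.93). CPSF6, a subunit of cleavage factor I, had 2 and 18 reads and -2.54 (-6.20 to -0.99). These 2 genes were past 2-fold by both scalings. CPSF4 (26 and 96 reads), the zinc finger subunit that contacts the poly(A) signal, and PAPOLA (14 and 45 reads), the main nuclear poly(A) polymerase, were past 2-fold by normalized density alone. PABPN1, the nuclear poly(A)-binding protein, was by far the densest member, with 513 and 360 and a log2 ratio of 0.51. PABPC4, a cytoplasmic poly(A)-binding protein, had densities of 23.6 and 39.4. CPSF2, a subunit of the cleavage and polyadenylation specificity factor, had 32.7 and 37.8, and CPSF7, a subunit of cleavage factor I, had 26.6 and 32.3.

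Lists of RNA regulators and selenoproteins followed. Among 17 factors of microRNA silencing and deadenylation with at least 20 reads, 2 were lower by normalized density (TOB2, which recruits the deadenylase, and the exonuclease XRN1), and none was higher. Its densest members were CNOT9 of the CCR4-NOT complex, with densities of 262 and 264, TNRC6A and TNRC6B, partners of Argonaute, with 207 and 189 and with 109 and 76.3, and AGO2 of the Argonaute family, with 87.1 and 76.6. Among 22 proteins that bind 3' UTR elements, 3 were lower, namely QKI, a regulator of splicing and stability (19.2 and 42.9), ACO1, the iron-responsive element-binding protein (10.6 and 26.6), and LIN28B, which blocks the maturation of let-7 (4.99 and 12.2). The densest of that list was IGF2BP2, an m6A reader that stabilizes mRNAs, with 630 and 505, followed by CELF1 with 351 and 344, RC3H2 with 244 and 190, and MBNL1 with 221 and 168. Of 6 selenoprotein genes, whose 3' UTR holds the element that recodes UGA, 1 was lower (SELENOI, 10.6 and 22.6). The densest of them was SELENON, of the endoplasmic reticulum, with 93.9 and 71.4, followed by SEPHS2, an enzyme of selenium metabolism, with 60.5 and 97.5, MSRB1, a methionine sulfoxide reductase, with 35.3 and 57.2, and GPX3, a secreted glutathione peroxidase, with 19.9 and 22.8. The median log2 ratios of the silencing factors, the 3' UTR-binding proteins and the selenoproteins were -0.19, -0.15 and -0.47, respectively, by normalized density, and -0.09, -0.15 and -0.21 by library sums. By library sums none of the members of these 3 lists was lower past 2-fold, and 1 member each of the first 2 lists was higher.

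In the list of tumour and nerve signalling, 16 genes had at least 20 reads, of which 2 were higher by both scalings and none lower. The median log2 ratio of the list was -0.29 by normalized density and 0.13 by library sums, against -0.16 and -0.01 for all genes. CX3CL1, a membrane-bound chemokine, had 44 lactate reads and 29 ddH2O reads, densities of 26.8 and 12.6 and a log2 ratio of 1.09 (0.40 to 1.83). Its fold over input was 6.33 with lactate and 7.53 with ddH2O. STC1 was the other. The study picked STC1 and CDCP1 with the help of this same RIP-seq, so their place in the list is not independent of these data. The densest members were CDCP1, described above, PLXND1 and PLXNB2, receptors for semaphorins, with 143 and 117 and with 69.6 and 61.5, and SEMA3A, a secreted repellent of axons, with 34.6 and 55.4.

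Comparisons inside a gene do not depend on library totals, and they were made on reads. In 1311 genes with at least 20 reads in both windows, the log2 ratio of the densest 3' UTR window minus that of the densest exon window had a median of 0.01, and in 319 genes with at least 100 reads in both it had a median of 0.05. At the centre of the distribution the 3' UTR thus had the ratio of the exon window of its gene. Of the 319 genes, 18 had a difference above 1 and 20 a difference below -1. In ROCK2, a kinase of the actin cytoskeleton downstream of RhoA, the 3' UTR window held 187 lactate reads and 201 ddH2O reads and the exon window 20 and 102, a difference of 2.19 ± 0.38 (SE of counting). RAB11FIP2, an effector of recycling endosomes, differed by 1.83 ± 0.29, HACD3, an enzyme of very long chain fatty acid synthesis, by 1.79 ± 0.33, and ACIN1, a splicing-associated protein, by 1.74 ± 0.40. In the other direction were RHOBTB3, with 79 and 262 reads in the 3' UTR window and 58 and 46 in the exon window (-2.05 ± 0.34), IL6ST, the shared receptor chain gp130 of the IL-6 family (-1.84 ± 0.38), PRMT2, an arginine methyltransferase (-1.78 ± 0.42), and KMT2B, a histone H3 lysine 4 methyltransferase (-1.70 ± 0.34).

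The same was done between the first (most upstream) and the last (most downstream) 3' UTR window of a gene. They were taken by position along the strand alone, so either can lie inside the gene. The median difference was 0.02 over 1159 genes, and 0.00 over 337 genes with at least 100 reads in both. In RYBP, a subunit of a Polycomb complex, the first window held 68 lactate reads and 62 ddH2O reads and the last window 46 and 126, a difference of 1.57 ± 0.35. EVI5 (1.46 ± 0.44), MIB1, a ubiquitin ligase of Notch ligands (1.35 ± 0.35), and USP42, a deubiquitinase (1.26 ± 0.26), also had the higher ratio in the first window. ROCK2 had the lower ratio in the first window (-1.80 ± 0.31, with 32 and 147 reads there and 171 and 221 in the last), as did MGA, a MAX-binding transcription factor (-1.56 ± 0.42), KIAA0930 (-1.51 ± 0.37) and ICMT, which methylates prenylated proteins (-1.50 ± 0.33). The first and last windows of ROCK2 lay 35227 bases apart, so its first window is among those inside the gene.

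Markers of the cell line were present in the data but not through 3' UTR peaks. KRT8 and KRT18, keratins of simple epithelia, had 1592 and 2737 lactate reads and 4024 and 8085 ddH2O reads at their densest windows, and KRT7, KRT19 and VIM had merged peaks too, none of them in a 3' UTR. Of the markers of other cell types, PTPRC (leukocytes) had 1 window with 0 and 3 reads, and PECAM1, CDH5, INS, PRSS1, COL1A2, NEFL and SOX10 had no merged peak.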

How the data were processed

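RNA from anti-NSUN2 pull-downs and inputs of PANC-1 cells was sequenced (SMART-Seq v4 kit). The submitters' processing notes name fastp 0.20.1, HISAT2 2.1.0, MACS2 2.2.7.1, bedtools 2.29.2, HOMER 4.11.1, DiffBind and GRCh38. The authors deposited, per condition, peaks called in the IP against its input with a fold enrichment (a ratio), a p-value and a q-value, annotated by region and gene. They also deposited merged peaks with the normalized read density (signal) of each IP library from MAnorm, beside an M value (log2 ratio) and a P-value of the comparison, which were not used. A p-value was not used from any file.

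Reads per window were recovered as (reads + 1) / 2 kb after removing the line of the normalization (slope 0.17, intercept -0.20), and came out whole within 0.02 in 99.997% of windows. On simulated windows with 3 other lines at least 99.999% of 116484 windows were recovered. The depth of the inputs is unknown. Symbols were taken for 160 identifiers, and gene spans, from RefSeq tables. No per-sample column was left unused.

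With 1 library per group, no test was run. Intervals are exact binomial at the 95% level. Higher and lower mean more than 2-fold with at least 20 reads. The alternative scaling equates library sums outside MT-RNR2 and MALAT1. Named genes were those the study follows, the 8 densest, the 8 highest and 8 lowest at 100 reads by both scalings, the 4 with most windows, the 4 with the largest fold in both lists, list members past 2-fold by both scalings or among the 4 densest, and the 4 largest within-gene differences each way, taken at 100 reads, a minimum applied to this rule after values were seen. One gene that the rule names is not reported here. The members and lists were chosen with earlier results of these data known. Python 3.11.15, numpy 2.4.6, pandas 2.3.3, scipy 1.17.1 and bedtools 2.31.1 were used.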

Additional observations from a re-analysis of the deposited data

How the results depend on the processing

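No paired analysis was possible because each group was 1 library. The counts of 209 higher and 1452 lower windows moved to 620 and 655 by library sums, and to 516 and 788 with the median of windows found in both lists set to no change, with median log2 ratios of -0.021 and -0.10 in place of -0.22. They were 17 and 280 at 4-fold, 789 and 3754 with no minimum of reads, and 44 and 237 at 100 reads. They stayed within 1.5 times the main counts with a 50% overlap or without windows that also overlap another region. The limit to 2000 bases and the rule of both scalings, given next, were chosen after seeing the data. Within 2000 bases of the annotated gene end the counts were 117 and 641, and 652 windows were lower by both scalings. At a fold enrichment of at least 4, 2451 genes of the lactate list and 3561 of the ddH2O list had a 3' UTR peak. Summing density over windows kept 7 of the 8 densest genes. List counts at 4-fold were 1 higher and 0 lower for AU-rich transcripts, 2 lower for polyadenylation factors and 0 for the others. By library sums they were 0 lower for AU-rich transcripts, selenoproteins, silencing factors and 3' UTR-binding proteins, 2 lower for polyadenylation factors, and 1 higher each for silencing factors and 3' UTR-binding proteins. LUC7L3, the one past 2-fold among the densest genes, fell short of it by library sums. ANKRD11 and 6 of the densest genes (RACK1, EEF2, ANXA2, IGFBP4, RPS2 and SREK1) changed sign there. The planned search for motifs was left out for want of a genome sequence.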

Other observations

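Windows within 2000 bases of the annotated end of the gene were also listed, a choice made after the values were seen. With at least 100 reads and the same call by both scalings, 17 of 2868 such windows were higher with lactate (0.593%) and 65 were lower (2.27%), against 1.52% and 3.82% over all merged peaks. BCL9L, a coactivator of beta-catenin, had densities of 73.6 with lactate and 31.4 with ddH2O and a fold over input of 41.3 against 6.58, while its other 3' UTR window had 28.5 and 49.8. LNPK, which shapes junctions of the endoplasmic reticulum, had 149 and 63.1, with 4.65-fold and 2.25-fold over input. FLNA, the actin cross-linker filamin A, had 141 and 66.4, with 10.5-fold and 10.0-fold over input. RARS1, the cytoplasmic arginyl-tRNA synthetase, had 16.9 and 69.3, and STIM2, a calcium sensor of the endoplasmic reticulum, had 12.2 and 50.7, both windows with a 3' UTR peak in the ddH2O list alone. RARS1 also had windows with a peak in both lists.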
